A study of Homo sapiens with 6 samples.

Results

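The ERK pathway output and feedback genes are 10 genes, *DUSP4*, *DUSP6*, *SPRY2*, *SPRY4*, *SPRED1*, *SPRED2*, *ETV4*, *ETV5*, *PHLDA1* and *EGR1*, chosen by gene name from the 30015 genes of the RNA-seq table. All 10 were listed and all 10 were tested. They were followed in HMV-II cells, a human melanoma line of vaginal origin and so of the mucosal type, grown in serum-containing F10 medium. The paper's methods describe stable knockdown and scrambled-control lines, made with lentiviral hairpins and puromycin selection. The study compared 3 Vector libraries, whose genotype is labelled WT, with 3 shEZH2 libraries, in which a short hairpin RNA targets EZH2, the histone H3 lysine 27 methyltransferase of the Polycomb repressive complex PRC2. The table's headers call the control shNC and the hairpin sh1, so the knockdown rests on a single hairpin. The labels do not say whether replicates came from separate cultures, so p-values measure the spread between these libraries, which may be technical.

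ERK is the last kinase of a cascade that runs from receptor tyrosine kinases through RAS, RAF and MEK, and it is commonly overactive in melanoma. Its activity switches on a set of transcripts within minutes to hours, among them transcription factors such as EGR1 and the PEA3-type ETS factors. Several of its targets act as brakes on the same cascade: the dual-specificity phosphatases remove phosphate from ERK, and the Sprouty and SPRED proteins restrain signalling at RAS and RAF. Only RNA was measured here, so ERK phosphorylation and the proteins are not described.

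Depth was 13400290 to 15923029 counted reads in Vector and 16129171 to 19128939 in shEZH2 libraries. Values are normalised read counts, that is, reads divided by 1 size factor per library. *EZH2* itself, the targeted gene, measured 483, 437 and 552 in Vector replicates 1 to 3 and 237, 247 and 225 in shEZH2 replicates 1 to 3, with a log2 fold change of -1.04 ± 0.14 (SE, n = 3 per group; adjusted p = 0.0142 in limma). Leaving out any library but Vector replicate 2 brought that adjusted p to between 0.0549 and 0.129. Vector replicate 2 stood apart from the other Vector libraries. Its reads differed from those of Vector replicates 1 and 3 by mean chi-square values of 119 and 117 per gene, against 2.14 for those 2 libraries compared with each other, and replicate 2 departed with gene length, by -0.51 (log2) in the shortest length quintile and 0.37 in the longest. It was the highest or the lowest Vector library for all 10 ERK genes (highest for 6 and lowest for 4), as for 90.7% of the genes tested. Among the shEZH2 libraries the mean chi-square per gene was 23.9 for replicates 1 and 2, 14.3 for 1 and 3, and 6.49 for 2 and 3. Melanocyte lineage markers were present, with *PMEL* at 48607 to 67512 and *SOX10* at 13186 to 18441. Of the 7 lineage markers, 42.9% were called by the rule given below, beside 14.6% of all genes tested. *TYRP1* (log2 fold change 1.68) and *MLANA* (0.88) were higher and *TYR* (-0.97) lower in shEZH2. Without Vector replicate 2 *MLANA* (0.39) was under the threshold. The summed leukocyte markers stayed at or under 22.1 and the endothelial ones at or under 67.5, while *EPCAM* and *DCN* had means of 1.47 and 0.65. The epithelial markers summed to 1309 to 1722 in Vector and 1570 to 1678 in shEZH2, with 0 of the 3 tested called in limma at any fold change. The fibroblast markers summed to 176 to 246 in Vector and 251 to 314 in shEZH2, with *LUM* higher and *COL1A2* lower, and *COL1A1* had a mean of 2.92. The part of these markers in the ERK results was not tested. *KRT5*, *CD3E* and *CDH5* were not analysed here.

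The knockdown libraries differed from Vector in 3 of the 10 ERK genes. *EGR1* and *DUSP6* rose and *DUSP4* fell. The call required an unadjusted p under 0.05 and a change of more than 1.5-fold in limma, and by that rule 7.55% of the 15251 genes tested were higher, 7.07% lower and 14.6% changed in either direction. After Benjamini-Hochberg adjustment over all genes tested, *EGR1* and *DUSP4* remained, where 4.12% of all genes did. The libraries of both groups did not overlap for 5 of the 10 genes, *EGR1*, *DUSP6*, *DUSP4*, *SPRED1* and *PHLDA1*, and 34.8% of all genes tested had no overlap. In RNA pooled from many cells, fewer cells expressing a gene and less of its RNA per cell cannot be told apart. The median log2 fold change of the 10 genes was -0.05, beside 0.04 over all genes tested, and -0.14 without Vector replicate 2. An exact two-sided permutation test over 3 against 3 libraries cannot go below p = 0.1, the value reached by each of those 5 genes.

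**Figure D1:**
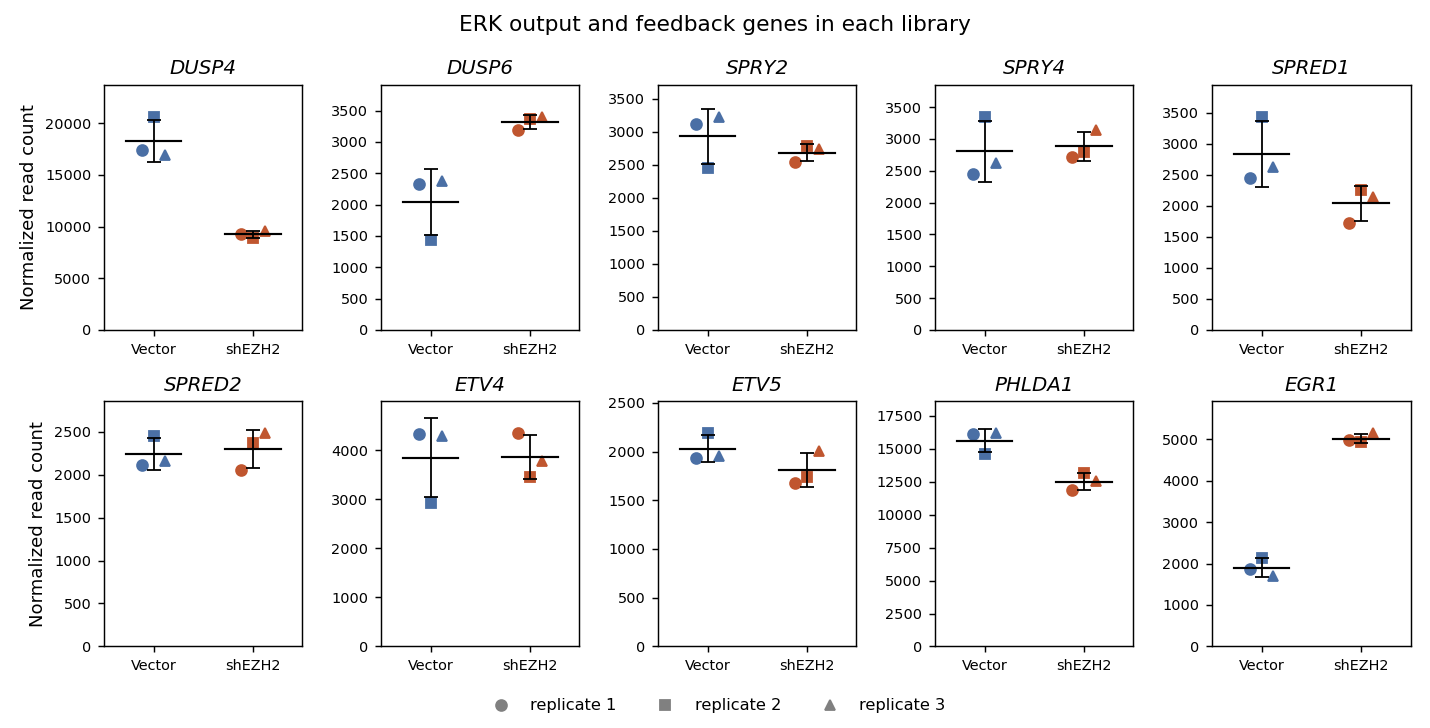
Normalised read counts of the 10 ERK output and feedback genes (y axes, each from 0) in the 3 Vector and 3 shEZH2 libraries. Points are libraries, with a shape for each replicate number, and bars are the mean ± SD of 3 libraries. *EGR1* lies at 1699 to 2138 in Vector and 4925 to 5137 in shEZH2, and *DUSP4* at 16928 to 20624 and 8873 to 9601.

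*EGR1*, an immediate-early zinc finger transcription factor, showed the largest rise of the 10 genes. It measured 1869.7, 2138 and 1699 in Vector replicates 1 to 3. The shEZH2 replicates measured 4974, 4925 and 5137. Every shEZH2 library was well above every Vector library, and the shEZH2 libraries lay close together. The group means were 1902 ± 221 and 5012 ± 111 (SD, n = 3), a 2.63-fold difference. The log2 fold change was 1.40 ± 0.14 (SE; 95% confidence interval 1.08 to 1.72; adjusted p = 0.00607 in limma). Without Vector replicate 2 it was 1.49. Leaving out any 1 shEZH2 library kept the log2 fold change between 1.39 and 1.42 but brought the adjusted p to between 0.0610 and 0.0765.

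*EGR1* lies on chromosome 5 from 138465490 to 138469315 on the plus strand, in the table's coordinates, whose gene ends match GRCh38. Its promoter is shown because it is the ERK gene with the largest rise, and because serum response factor and its ERK-regulated ETS partners, the ternary complex factors, are known to act at CArG boxes there. The 250 bases before the RefSeq start of *EGR1* (GRCh38.p14, chr5:138465229-138465478, plus strand, 5′ to 3′) are given with the 2 CArG boxes found by the search in capitals.
EGR1: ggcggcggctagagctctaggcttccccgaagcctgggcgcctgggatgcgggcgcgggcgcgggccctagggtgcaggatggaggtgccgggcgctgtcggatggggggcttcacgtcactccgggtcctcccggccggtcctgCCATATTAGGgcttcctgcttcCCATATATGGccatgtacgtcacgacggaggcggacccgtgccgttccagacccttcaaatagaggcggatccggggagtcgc

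The boxes span positions -105 to -96 and -83 to -74 from that start. The search used the CArG consensus on both strands of windows of 250 bases before and 50 after each RefSeq start. Of 35114 such windows, 1.29% held at least 1 box and 0.0313% held 2 or more. RefSeq windows of 7 of the 10 ERK genes were used (10 windows in all). None was found for *ETV4* or *ETV5*. Windows of ERK genes on chromosome 8 were left out, so *DUSP4* was not searched. The *EGR1* window was the 1 window of these 10 with a CArG box. The extended ETS site CCGGAAG, present in 10.3% of all windows, and the cyclic AMP response element TGACGTCA, in 1.85%, matched none of the 10. The shorter ETS core GGAA, other ETS sites and shorter forms of the cyclic AMP response element were not searched for. Such sites in these windows are therefore not excluded. The AP-1 motif TGANTCA, in 7.71%, had 2 matches in 1 window of *SPRED2*. These matches describe letters in a window and say nothing of binding.

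*DUSP4* and *DUSP6*, phosphatases that inactivate ERK in the nucleus and in the cytoplasm respectively, moved in opposite directions. *DUSP4* lies on chromosome 8 from 29333064 to 29350668 and *DUSP6* on chromosome 12 from 89347232 to 89353271, both on the minus strand. *DUSP4* measured 17392, 20624 and 16928 in Vector replicates 1 to 3. In shEZH2 it measured 9277, 8873 and 9601. The lowest Vector library lay far above the highest shEZH2 library. Means were 18315 ± 2013 and 9250.4 ± 365 (SD, n = 3), and the log2 fold change was -0.98 ± 0.15 (SE; 95% confidence interval -1.33 to -0.63; adjusted p = 0.0200 in limma). It was -0.89 without Vector replicate 2, with an adjusted p of 2.77e-05 in limma. Leaving out any other library kept the log2 fold change between -1.03 and -0.95 and brought the adjusted p to between 0.0655 and 0.143.

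*DUSP6* measured 2327, 1436 and 2376 in Vector replicates 1 to 3, and 3194, 3359 and 3399.85 in the shEZH2 replicates. The shEZH2 libraries were all higher, but Vector replicate 2 lay well below the other Vector libraries. The log2 fold change was 0.73 ± 0.21 (SE; 95% confidence interval 0.24 to 1.22; unadjusted p = 0.00893 and adjusted p = 0.0962 in limma). Without Vector replicate 2 it was 0.50, with an adjusted p of 0.00262 in limma, and so under the fold threshold. The size of the *DUSP6* difference therefore rested in part on that library, while its direction did not.

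The within-library log2 ratio of *DUSP4* to *DUSP6* was 2.90, 3.84 and 2.83 in Vector replicates 1 to 3. It was 1.54, 1.40 and 1.497 in the shEZH2 replicates. All 3 shEZH2 ratios were below every Vector ratio, with a difference of -1.71 (exact two-sided permutation p = 0.1, adjusted p = 0.2 over 4 pairs), and -1.39 without Vector replicate 2. With 3 against 3 libraries, this test cannot pass 0.05.

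The Sprouty genes, inducible inhibitors of receptor tyrosine kinase signalling, were not called. *SPRY2* measured 3125, 2457 and 3229 in Vector and 2538.5, 2781 and 2743 in shEZH2 replicates 1 to 3, a log2 fold change of -0.12 (95% confidence interval -0.47 to 0.23). *SPRY4* measured 2449, 3345 and 2615 in Vector and 2714, 2796 and 3141 in shEZH2, a log2 fold change of 0.05 (-0.32 to 0.43). For both genes the groups overlapped, and both intervals leave out a difference as large as the fold threshold. Their adjusted p-values in limma were 0.649 and 0.863. The overlap rested on Vector replicate 2. Vector replicates 1 and 3 lay above every shEZH2 library for *SPRY2* and below every one for *SPRY4*. Without Vector replicate 2 the log2 fold changes were -0.24 and 0.19 (adjusted p = 0.0928 and 0.225 in limma). The log2 ratio of *SPRY2* to *SPRY4* differed by -0.17 between the groups (exact permutation p = 0.5, adjusted p = 0.667 over 4 pairs), and by -0.43 without that library.

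The SPRED genes encode membrane-associated inhibitors of RAS-to-RAF signalling that bring neurofibromin to RAS. *SPRED1* measured 2450.1, 3435 and 2619 in Vector replicates 1 to 3 and 1724, 2254 and 2143 in shEZH2, so all shEZH2 values were lower. Its log2 fold change was -0.47 ± 0.18 (SE; 95% confidence interval -0.89 to -0.05; unadjusted p = 0.0343, adjusted p = 0.182 in limma), under the fold threshold, and -0.32 without Vector replicate 2. Without shEZH2 replicate 1 it was -0.35, with an unadjusted p of 0.115 in limma. *SPRED2* measured 2108, 2447 and 2162 in Vector and 2048, 2368 and 2479 in shEZH2, a log2 fold change of 0.04 (-0.29 to 0.36; adjusted p = 0.890). The groups overlapped for *SPRED2* and not for *SPRED1*. The log2 ratio of *SPRED1* to *SPRED2* was 0.22, 0.49 and 0.28 in Vector and -0.25, -0.07 and -0.21 in shEZH2, a difference of -0.50 (exact permutation p = 0.1, adjusted p = 0.2 over 4 pairs).

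*ETV4* and *ETV5*, ETS transcription factors induced by ERK, were not called. *ETV4* measured 4326, 2923 and 4304 in Vector and 4347, 3453 and 3787 in shEZH2 replicates 1 to 3, a log2 fold change of 0.02 (95% confidence interval -0.43 to 0.47; adjusted p = 0.956 in limma). *ETV5* measured 1937, 2185 and 1959 in Vector and 1681, 1739 and 2008 in shEZH2, a log2 fold change of -0.17 (-0.48 to 0.15; adjusted p = 0.478). The groups overlapped for both. Without Vector replicate 2 the *ETV4* value was -0.17, so it has no settled sign. *ETV4* overlaps *DHX8*, which lies on the opposite strand and had a mean of 1889.7; the strandedness of the counting is not given in the sources used here, so reads of these genes may not be told apart. *DUSP6*, *SPRY4*, *ETV5* and *PHLDA1* overlap opposite-strand genes too, with means of at most 25.2.

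*PHLDA1*, a pleckstrin homology-like protein induced by growth factors, was not called. It measured 16103, 14619.7 and 16172 in Vector replicates 1 to 3 and 11845, 13131 and 12544 in shEZH2. All shEZH2 values were below all Vector values, yet the log2 fold change of -0.32 ± 0.14 (SE; 95% confidence interval -0.66 to 0.01) missed both thresholds (unadjusted p = 0.0584, adjusted p = 0.231 in limma). Without Vector replicate 2 the log2 fold change was -0.37 with an adjusted p of 0.0123 in limma, still under the fold threshold.

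**Figure D2:**
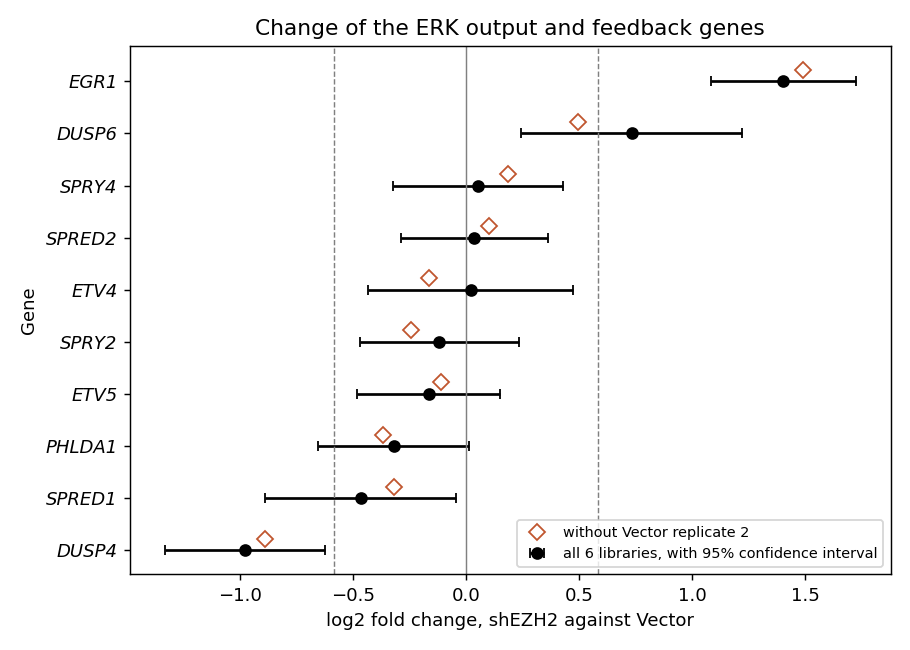
Log2 fold changes of shEZH2 against Vector (x axis) for the 10 genes (y axis). Black points and bars are limma estimates from all 6 libraries with 95% confidence intervals, open diamonds leave out Vector replicate 2, and dashed lines mark 1.5-fold changes. *EGR1* at 1.40 and *DUSP4* at -0.98 lie past the lines with their whole intervals, and *DUSP6* moves from 0.73 to 0.50 without Vector replicate 2.

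The 10 genes were among the more abundant transcripts of these cells. Per kilobase of gene length, their mean levels lay between the 84.4th and 98.3rd percentiles of the genes tested. In Vector the order of levels per kilobase was *DUSP4* (2524 ± 277, SD), *PHLDA1* (1937 ± 109), *ETV4* (1068 ± 223), *SPRY2* (967 ± 138), *EGR1* (606 ± 70.4), *DUSP6* (442 ± 114), *SPRED2* (434 ± 35.4), *SPRY4* (427 ± 72.6), *ETV5* (349 ± 23.7) and *SPRED1* (343 ± 63.7). The libraries of *ETV4* and *SPRY2* overlapped, as did those of each neighbour from *DUSP6* down to *SPRED1*. In shEZH2, *EGR1* (1597 ± 35.5) and *PHLDA1* (1550.0 ± 79.8) came first with overlapping libraries, followed by *DUSP4* (1275 ± 50.2), *ETV4* (1071 ± 125), *SPRY2* (885 ± 42.9) and *DUSP6* (716 ± 23.6). *SPRED2* (446 ± 43.4) and *SPRY4* (439 ± 34.6) overlapped, and *ETV5* (312 ± 30.1) and *SPRED1* (247 ± 33.8) were lowest. The level of *DUSP4* per kilobase was 4.02, 4.17 and 4.31 times that of *EGR1* in Vector replicates 1 to 3. In shEZH2 it was 0.806, 0.779 and 0.808 times that of *EGR1*, so the order of these genes was opposite in the groups in all 6 libraries.

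**Figure D3:**
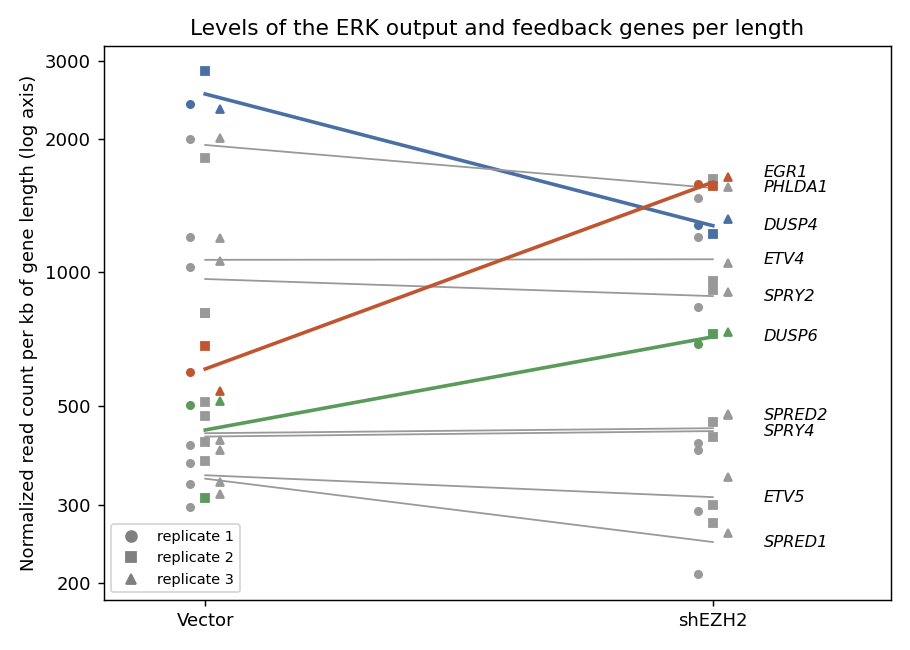
Normalised read count per kilobase of gene length (y axis, log scale) for the 10 genes in Vector and shEZH2. Points are libraries, with a shape for each replicate number, and lines join group means. *DUSP4* goes from 2524 to 1275, *EGR1* from 606 to 1597 and *DUSP6* from 442 to 716.

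The paralogs of these genes did not move as one. Of 16 paralogs tested, 3 were higher, 1 was lower and 12 were not called. That is 25% called, beside 14.6% of all genes tested, and the median log2 fold change of the paralogs was -0.02. *DUSP1*, an immediate-early phosphatase of several MAP kinases, rose from 352, 198 and 318 in Vector to 579, 528 and 559 in shEZH2, a log2 fold change of 0.98 ± 0.22 (SE; adjusted p = 0.0567 in limma; 0.73 without Vector replicate 2). *DUSP8*, which acts mainly on JNK and p38, rose by 0.59, just past the threshold. *SPRY3* rose by 1.18 but had a mean count of only 19.7. *EGR3*, a relative of *EGR1*, fell: it measured 596, 629 and 604 in Vector and 348, 398 and 382 in shEZH2, a log2 fold change of -0.70 ± 0.13 (SE; adjusted p = 0.0304 in limma). *EGR1* and *EGR3* thus differed in the sign of their change in every pairing of a shEZH2 with a Vector library. The other EGR genes were not called, with log2 fold changes of -0.03 for *EGR2* and 0.41 for *EGR4*. Among the remaining phosphatases, *DUSP2* (0.54), *DUSP5* (-0.03), *DUSP7* (-0.36), *DUSP9* (0.33), *DUSP10* (0.23) and *DUSP16* (-0.25) were not called. *SPRY1* (-0.01), *SPRED3* (-0.19), *PHLDA2* (-0.06) and *PHLDA3* (-0.07) were not called either, and *ETV1* was under the minimum level.

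Upstream, 1 of 22 adaptor and cascade genes tested was higher and 1 lower, 9.09% in all beside 14.6% of all genes. *MAPK3*, which encodes ERK1, measured 886, 660.1 and 873 in Vector and 1481, 1209.8 and 1322 in shEZH2 and rose by 0.74 (adjusted p = 0.0534 in limma; 0.60 without Vector replicate 2). The MEK genes *MAP2K1* (0.51) and *MAP2K2* (0.24) and the RAF genes *BRAF* (-0.45) and *ARAF* (0.10) were not called. *PTPN11*, encoding the phosphatase SHP2 that is needed for RAS activation, fell by 0.84 (adjusted p = 0.0755; a fall of 0.63 without Vector replicate 2).

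Of 9 receptor tyrosine kinases tested, *MET* was higher (log2 fold change 0.70, adjusted p = 0.137 in limma) although its groups overlapped, and *ERBB3* was lower (-0.62, adjusted p = 0.117). That is 22.2% called, beside 14.6% of all genes tested. Without Vector replicate 2 the *ERBB3* value was -0.43, under the threshold, *EGFR* went from 0.41 to 0.71 (adjusted p = 0.00964) and *IGF1R* from -0.42 to 0.0036, which left 2 receptors higher and 0 lower in limma. Of 5 ligands, 2 were higher (40%, beside 7.55% of all genes tested) and 0 lower (beside 7.07%). *FGF2* was lower without overlap between the groups but under the fold threshold. Its log2 fold change was -0.54 (unadjusted p = 0.00439, adjusted p = 0.0714 in limma), and -0.52 without Vector replicate 2. *NRG1*, a ligand of ERBB3 and ERBB4, rose from 111, 114 and 95.7 to 204, 283 and 266 (1.21, adjusted p = 0.0178). *HBEGF*, a ligand of EGFR, rose by 0.69 (adjusted p = 0.106; 0.48 without Vector replicate 2, where *KITLG* passed the threshold at 0.61). Among 11 other brakes, 3 were higher and 0 lower in limma, 27.3% in all beside 14.6% of all genes tested. Over all genes tested, 7.55% were higher and 7.07% lower. In limma 0 of these brakes were lower at an unadjusted p under 0.05 at any fold change. At the call threshold 2 were higher in edgeR with TMM factors, in edgeR with upper-quartile factors and in DESeq2. In these fits 0 were lower with TMM factors, 1 with upper-quartile factors and 1 in DESeq2. The brake lower in DESeq2 was *NF1*, which encodes neurofibromin, with a log2 fold change of -0.71 in limma and -0.33 without Vector replicate 2. *ERRFI1*, an ERK-induced inhibitor of EGFR family receptors, rose from 556, 454 and 528 to 1182, 1446 and 1398 (1.39, adjusted p = 0.00717). *PEBP1*, an inhibitor of the cascade, rose by 0.80 (adjusted p = 0.0738) and *IL17RD*, an inhibitor of FGF signalling also called SEF, by 0.61 (adjusted p = 0.159).

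Among 15 other ERK-driven transcripts tested, 3 were higher and 0 lower in limma (20% called, beside 14.6% of all genes tested). At an unadjusted p under 0.05 at any fold change 1 was lower, *ZFP36L1* (-0.57, adjusted p = 0.0499), which encodes an RNA-binding protein. At the call threshold 0 were lower in edgeR with TMM factors, 1 in edgeR with upper-quartile factors and 1 in DESeq2, which was *ZFP36L1*. A log2 fold change above 0 was found for 12 of the 15 (80.0%, beside 53.5% of all genes tested), and for 8 of the 15 without Vector replicate 2 (53.3%, beside 49.6%), with a list median of 0.14 and then 0.03. *LIF*, a cytokine of the interleukin 6 family, rose by 1.19 (adjusted p = 0.0125). *FOSL1*, an AP-1 subunit that accumulates under sustained ERK signalling, rose by 0.69 (adjusted p = 0.0787; 0.52 without Vector replicate 2). *EPHA2*, an ephrin receptor, rose by 0.60 (adjusted p = 0.0392). Of 14 ERK substrates and effector kinases, 7.14% were called, beside 14.6% of all genes tested. Among them *ELK4*, a ternary complex factor that partners serum response factor, was lower at -0.71 (adjusted p = 0.169). Without Vector replicate 2 it was at -0.42, under the threshold, and *RPS6KA5*, an ERK-activated kinase, passed it at 0.74. Over all 7 lists, 13 of 92 genes tested were higher (14.1%, beside 7.55% of all genes) and 4 lower (4.35%, beside 7.07%). Of the 92, 6 had an adjusted p under 0.05, as did 4.12% of all genes tested. The 92 genes had a median log2 fold change of 0.08. Of the 101 genes listed, 7 were under the minimum level and *AREG* and *EREG* were not analysed here.

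The genes whose log2 values over the 6 libraries were most like those of *DUSP6* were *SMS*, *PGAM1*, *RAB11A*, *SF3A3* and *TYMS*, with Pearson's r of 0.998 to 0.999. Of 11881 genes compared, 565 had an r over 0.95. These points share the low value of Vector replicate 2: *SMS*, for example, measured 4873, 2875 and 4815 in Vector and 6641, 7145 and 6938 in shEZH2.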

How the data were processed

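RNA of HMV-II cells was sequenced in 3 Vector and 3 shEZH2 libraries (poly-A selected, Illumina NovaSeq). Per the labels, the authors used featureCounts v1.5.0-p3 for counting and DESeq2 1.20.0. The aligner and strand setting are not given in the sources used here. The deposited table holds signal values, which the authors made by dividing the reads of each gene by 1 size factor per library. It also holds group means and the authors' own log2 fold changes and p-values, which were not used. Dividing each library by its smallest value above 0 gave whole numbers, within 0.001, for 100% of values, and these were taken as the reads. The digit in each column name was read as the replicate number. All 6 library columns were used and 0 were left out. The processing notes list hg19, but a start or end equal to that in GRCh38 was found for 47.7% of 20588 genes, and to that in GRCh37 for 0.709%, so the coordinates are given as GRCh38.

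Because the values are normalised, the groups were compared with limma 3.58.1 (moderated variances, trended on the mean) using log2(value + 1) of 15251 genes whose mean was 10 or more, with Benjamini-Hochberg adjustment. A fold change on this scale understates that of low genes. The call threshold is that of the study's methods. Exact two-sided permutation tests used the 20 arrangements of the 6 libraries. The fit was tested on simulated data. The 10 genes and all lists were chosen with earlier results of these data known, and the ratios between paralogs and between *DUSP4* and *EGR1*, the ratios without Vector replicate 2, the promoter motifs, the choice of the *EGR1* promoter, the count of genes in which Vector replicate 2 was extreme, the shares above 0, and the naming of *NF1*, *ZFP36L1*, *EGFR*, *IGF1R*, *FGF2*, *KITLG*, *RPS6KA5* and the marker genes were added after the values were seen. Results of some genes are not reported here. Named genes are *EZH2*, the 10 genes, their paralogs, genes of the kinase cascade, up to 3 called genes per direction in each other list with a mean of at least 50, and the 5 genes most correlated with *DUSP6* among those with such a mean.

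Alternatives were edgeR 4.0.16 (TMM and upper-quartile factors) and DESeq2 1.42.0 on the recovered reads, both on the same 15251 genes, TMM scaling in limma, pseudocounts of 0.1 and 5, no minimum, a minimum of 50, only protein-coding genes, the replicate number as a block, a log2 fold threshold of 1, an adjusted p, a lowess trend on gene length removed, array weights, and each library left out. R 4.3.3, Python 3.11.15, pandas 2.3.3, scipy 1.17.1 and matplotlib 3.10.9 were used. Promoter windows came from RefSeq on GRCh38.p14.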

Additional observations from a re-analysis of the deposited data

How the results depend on the processing

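*EZH2* and *EGR1* kept their direction and call under all 20 alternatives, with log2 fold changes of -1.19 to -0.96 and 1.24 to 1.53. *DUSP4* did so under 19 (-1.03 to -0.85), and was under the log2 fold threshold when that was set at 1. *DUSP6* lost its call under 4 (array weights, a log2 fold threshold of 1, an adjusted p, and without Vector replicate 2), with values of 0.50 to 0.86. The count of ERK genes higher was 1 with array weights, with a log2 fold threshold of 1 and with an adjusted p, and 1 to 2 with a library left out. The count lower was 0 with a log2 fold threshold of 1, and 1 with any library left out. The count with an adjusted p under 0.05 was 1 with the replicate block, 9 with array weights, and 0 to 4 with a library left out: 1 without Vector replicate 1 or 3, 4 without Vector replicate 2, and 0 without any 1 shEZH2 replicate. Over all genes such counts moved too. Array weights gave 3630 higher and 3498 lower of 15251, against 348 and 281 in the main fit. Leaving out Vector replicate 2 gave 1500 and 1388 of 15123. Leaving out shEZH2 replicate 1, 2 or 3 gave 13 and 6, 19 and 12, and 3 and 1. Over the 7 pathway lists, the 13 genes higher became 4 with a log2 fold threshold of 1 and 4 with an adjusted p, and 10 to 15 with a library left out. The 4 lower became 0 and 1 under those settings, and 2 to 6 with a library left out, with 2 without Vector replicate 2 and 2 without shEZH2 replicate 1. The adjusted p of *EGR1* ran from 5.95e-14 to 0.0765 and that of *DUSP4* from 8.90e-08 to 0.143 over the alternatives.

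Of the 7 ERK genes not called, *ETV4*, *ETV5*, *SPRY4* and *SPRED2* changed sign. *ETV4* was at -0.016 with upper-quartile factors, -0.013 in DESeq2, -0.11 with the length trend removed, -0.18 with array weights, and -0.17 to 0.12 with a library left out. *ETV5* was at 0.012 with array weights. With a library left out *SPRY4* ran from -0.039 to 0.19 and *SPRED2* from -0.021 to 0.12. The log2 ratio of *ETV4* to *ETV5*, which differed by 0.19, differed by -0.056 without Vector replicate 2, and the cause was not tested.

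Same-numbered libraries had deviations from their group means that correlated at 0.28, 0.22 and -0.11. With 3 libraries per group and Vector replicate 2 standing apart, these values cannot decide whether the numbers pair the samples. With the replicate block the adjusted p of *DUSP4* was 0.0511. Over all genes, 348 higher and 281 lower with an adjusted p under 0.05 became 770 and 874 in DESeq2, 224 and 200 with the block, 675 and 645 with the length trend removed, 3630 and 3498 with array weights, and 3 to 1500 and 1 to 1388 with a library left out. With no minimum, 1701 genes were higher and 1610 lower at the call threshold.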
